A study of Rattus norvegicus with 6 samples.

Results

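The microRNAs described here are rno-miR-423-5p and rno-miR-423-3p, which are cut from the left and the right side of the same rat hairpin precursor. They are 2 of the 758 microRNAs on the array, both were found there by name, and the hairpin was chosen from earlier values of these arrays in which its 5p arm was higher in arterial plasma. The study asked whether arterial and venous plasma carry the same microRNAs. All samples came from male Sprague-Dawley rats aged 10 weeks that had received no treatment, the arterial samples were drawn from the abdominal aorta and the venous ones from the postcava (the large vein that returns blood from the rear body), and each of 3 rats gave 1 sample of each kind. Both kinds of blood were collected with EDTA and RNase inhibitor, spun, passed through a filter of fine pore and extracted alike, and each of the 6 samples was labelled with Cy3 and hybridized to 1 single-colour array.

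A microRNA is a short RNA that guides the silencing machinery to messenger RNAs that pair with its seed, a stretch near its 5′ end. A hairpin precursor is cut into a duplex of its arms, and usually 1 arm is kept in the silencing complex more often than the other. MicroRNAs also circulate in plasma, in vesicles or bound to protein, where they come from blood cells and solid organs. In people, miR-423-5p has been studied as a circulating marker of heart failure, and miR-423 is also among the microRNAs used as reference in plasma PCR.

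The mature 5p sequence is shown because its seed is what defines its target class. Beside it stands rno-miR-3573-5p, the other rat microRNA with that seed among the RefSeq sequences used. Both are given 5′ to 3′ as in RefSeq on GRCr8, with the seed (bases 2 to 8) in capitals.
rno-miR-423-5p: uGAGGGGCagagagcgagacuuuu
rno-miR-3573-5p: uGAGGGGCagugauagaaagga
The 5p arm has 24 bases and lies at chr10:62412317-62412340 on the minus strand. Of 693 mature rat names given there, 2 carry the seed, and these share their first 10 bases. The array also has probes for rno-miR-3573-5p, which was detected on 0 of the 6 arrays, with processed intensities of -2.27 to -0.53. The second member, rno-miR-423-3p, has no mature entry in the table.

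The precursor of 79 bases is shown with the 5p arm, positions 11 to 34, in capitals, so that the part measured as 5p can be seen within it.
rno-mir-423 hairpin: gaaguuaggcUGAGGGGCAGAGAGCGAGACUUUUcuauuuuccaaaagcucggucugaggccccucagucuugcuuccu
It lies at chr10:62412272-62412350 on the minus strand of GRCr8, within the interval of the protein-coding gene Nsrp1, which encodes a splicing regulator of nuclear speckles and is annotated on the same strand. In the fold that RNAfold predicted, 58 of the 79 bases were paired, among them 20 of the 24 bases of the 5p arm.

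Each array carried 12128 spots of 1806 probes. Between 137 and 175 microRNAs were detected on an array and 126 on all 6, both arms of miR-423 included. No spot was saturated. The samples of rats 1 and 2 lay on 1 slide and those of rat 3 on another, so that each slide held both kinds of plasma. The arterial arrays of rats 2 and 3 stood apart in the labelling spike-ins (dmr_285 and dmr_31a, synthetic RNAs added at the labelling reaction). Their geometric mean intensity was 491, 1086 and 1010 for arterial samples 1, 2 and 3, and 496, 475 and 424 in the venous samples. The hybridization spike-ins, which are added later, were between 4015 and 5650 without separating the 2 kinds of plasma. The part of the labelling reaction in the results was not tested, and values scaled to these spike-ins and values of rat 1, whose arrays were alike in them, are given beside the results.

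After quantile normalization the level of rno-miR-423-5p was higher in the arterial than in the venous plasma of each rat, a direction that turned in rat 2 when arrays were scaled to the labelling spike-ins and in rat 1 when they were scaled to the 75th percentile of all microRNAs. Levels are background-subtracted intensities that were averaged over the spots and probes of a microRNA, quantile normalized between arrays (each array is given the same distribution of values) and put on the log2 scale. In arterial plasma the log2 level was 4.93 in rat 1, 5.25 in rat 2 and 5.41 in rat 3. In venous plasma it was 4.58, 4.68 and 4.68. The lowest arterial level lay above the highest venous one, and the venous levels were closer to each other than the arterial levels were. This order of spread turned before normalization, where the SD of the processed intensity was 7.84 in arterial and 13.2 in venous plasma. In the table of the authors the SD was 7.80 and 7.75. The group means were 5.19 ± 0.24 (SD, n = 3) and 4.64 ± 0.06 (SD, n = 3). On the linear scale these levels were 37.0 ± 6.04 and 25.0 ± 0.98 (SD, n = 3). In plasma, a larger number of cells that release a microRNA and more release per cell cannot be told apart. The log2 difference, arterial minus venous, was 0.35 in rat 1, 0.57 in rat 2 and 0.73 in rat 3, with a mean of 0.55 ± 0.19 (SD, n = 3 rats). Because this contrast led to the choice of the hairpin, these values are a description, and no p-value is given for them. Of the 126 microRNAs detected on all arrays, 9.52% were higher in arterial plasma in all 3 rats, and 2.38% had all 3 arterial levels above all 3 venous levels. rno-miR-423-5p is 1 of the 12 and 1 of the 3 microRNAs behind these shares, as the choice implies.

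The level of rno-miR-423-3p overlapped between the 2 kinds of plasma. In arterial plasma its log2 level was 3.44 in rat 1, 3.51 in rat 2 and 2.64 in rat 3. In venous plasma it was 3.34, 3.24 and 2.81. Rat 3 gave the lowest level of each group. The means were 3.20 ± 0.48 and 3.13 ± 0.28 (SD, n = 3), and the difference within rats was 0.10, 0.27 and -0.17, or 0.07 ± 0.23 (SD, n = 3 rats). The mean difference of the 3p arm was therefore smaller than its spread between rats, and its sign was not the same in all rats. In limma with the rat as a block, 0.792% of the 758 microRNAs passed the cutoff of 0.025 named in the methods (unadjusted, two-sided), and 0 of the 2 arms did so. Under 10 of 30 alternatives, the table of the authors among them, 1 arm passed. This count describes the contrast that chose the hairpin, and nothing is read from it.

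**Figure D1:**
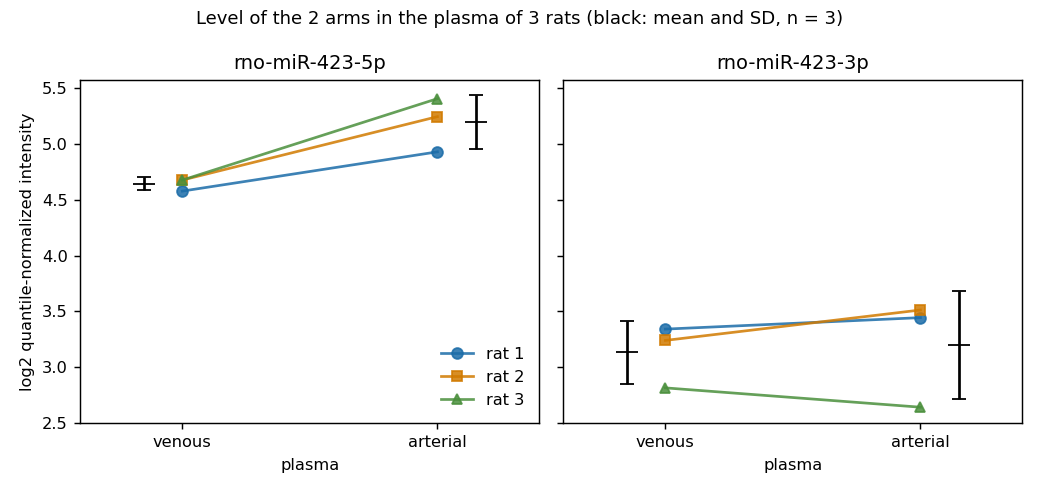
Log2 quantile-normalized intensity (vertical axis) of rno-miR-423-5p and rno-miR-423-3p in venous and arterial plasma, with 1 line for each of 3 rats and the mean and SD (n = 3) in black. The 5p lines all rise, from 4.58 to 4.68 in venous to 4.93 to 5.41 in arterial plasma (labelling spike-in scaling turns rat 2 and 75th percentile scaling over all microRNAs turns rat 1), and the 3p lines of rats 1 and 2 lie above the line of rat 3 in both kinds of plasma.

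Before normalization between arrays the groups of rno-miR-423-5p overlapped. Its processed intensity was 32.9, 48.3 and 38.3 in the arterial and 16.3, 37.7 and 13.5 in the venous plasma of rats 1, 2 and 3. The venous sample of rat 2 lay above the arterial sample of rat 1, while within each rat the arterial sample was the brighter one. The processed intensity of rno-miR-423-3p was 14.7, 12.3 and 5.45 in arterial and 8.33, 13.5 and 4.27 in venous plasma, and in rat 2 the venous sample was the brighter. Over the 126 detected microRNAs the median processed intensity was 35.4, 41.8 and 30.1 in arterial and 21.8, 52.9 and 17.2 in venous plasma, so that the venous samples of rats 1 and 3, the dimmest for 5p, were also the dimmest arrays. In the quantile-normalized table of the authors, which is not background subtracted, the mean intensity of the 5p probes was 70.2, 80.5 and 85.5 in arterial and 58.9, 67.1 and 74.4 in venous plasma. It was higher in the arterial sample of each rat there too, and the groups overlapped.

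The size of the 5p difference depended on how arrays were put on a common scale. Without normalization the mean log2 difference of rno-miR-423-5p was 0.96, and the median over the 126 detected microRNAs was 0.40. Scaled to the hybridization spike-ins these values were 1.05 and 0.49. Scaled to the labelling spike-ins they were 0.15 and -0.41, and the difference in rats 1, 2 and 3 was then 1.02, -0.84 and 0.26. Rat 2 thus changed its sign under this scaling, which was chosen after the data were seen. Scaled to the 75th percentile of all microRNAs the mean was 0.54, but the difference was -0.03 in rat 1. Relative to the median of the detected microRNAs, the 5p difference was 0.55 after quantile normalization and 0.56 without it. A scaling of whole arrays leaves this relative value as it is by construction, so its being equal under the other scalings is no sign of stability.

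The sign of the rno-miR-423-3p difference depended on the scaling. Its mean difference was 0.35 without normalization and 0.43 with the hybridization spike-ins, against 0.07 after quantile normalization. It was -0.47 with the labelling spike-ins and -0.08 with the 75th percentile of all microRNAs. Relative to the median of the detected microRNAs it was 0.07 after quantile normalization and -0.06 without it. No direction is given for this arm.

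**Figure D2:**
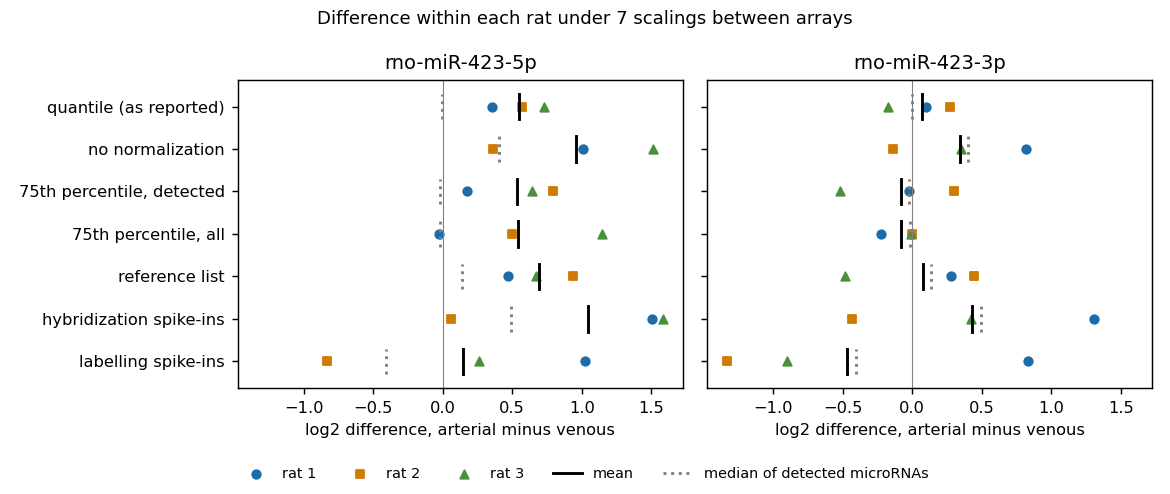
Log2 difference, arterial minus venous (horizontal axis), of each arm in 3 rats under 7 scalings between arrays, with the mean over rats as a black bar and the median of the 126 microRNAs detected on all arrays as a dotted bar. For rno-miR-423-5p the black bar lies right of the dotted bar in each row, by a distance that a scaling of whole arrays cannot change, with means from 0.15 to 1.05, while for rno-miR-423-3p the bars lie close together.

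The 5p arm was read by 2 probes with 8 spots each. On probe A_26_P00002716 the mean processed intensity ranged from 11.4 to 51.2 over the arrays, and 45 of 48 spots were well above background. On probe A_26_P00002717 it ranged from 15.5 to 45.5, and 48 of 48 spots were well above background. The spots of a probe varied within an array by 2.91 to 21.6% (coefficient of variation) on the first probe and by 3.44 to 16.3% on the second. Both 5p probes were thus measured on every array, with a spread between spots that was small beside the range between arrays. Feature Extraction flagged 2 spots as outliers on the arterial array of rat 2 and 2 on that of rat 3, all of probe A_26_P00002716, and these were left out.

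Alone, each of the 2 probes gave a higher 5p level in arterial plasma in every rat, but by different amounts. The quantile-normalized log2 difference was 0.58, 0.66 and 1.08 on probe A_26_P00002716 in rats 1, 2 and 3, with a mean of 0.77 ± 0.27 (SD, n = 3 rats). It was 0.15, 0.47 and 0.34 on probe A_26_P00002717, with a mean of 0.32 ± 0.17 (SD, n = 3 rats). The first probe gave the larger difference in each rat on these values, though not in rat 2 in the table of the authors, where the log2 differences were 0.25 and 0.28. The ratio of the first to the second probe within an array, which no scaling of an array can change, was 0.872, 1.12 and 1.12 in arterial and 0.734, 0.923 and 0.732 in venous plasma. Levels of different probes are not comparable, so only the change of this ratio between samples is read. On the log2 scale the arterial ratio exceeded the venous one by 0.25 (rat 1), 0.28 (rat 2) and 0.61 (rat 3), with a mean of 0.38 ± 0.20 (SD, n = 3 rats). Among 74 microRNAs with 2 such probes, the median size of this change was 0.0626, and that of rno-miR-423-5p was the third largest. The 2 larger ones, named here after their values were seen, were rno-miR-1224 at -0.73 and rno-miR-328a-5p at -0.43. The change had the same sign in all rats for 33 of the 74, so that a common sign alone was frequent among probe pairs. The size of the 5p difference thus depended on the probe. The table of the authors gave log2 differences of 0.28 ± 0.03 and 0.21 ± 0.08 (SD, n = 3 rats) for the 2 probes.

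**Figure D3:**
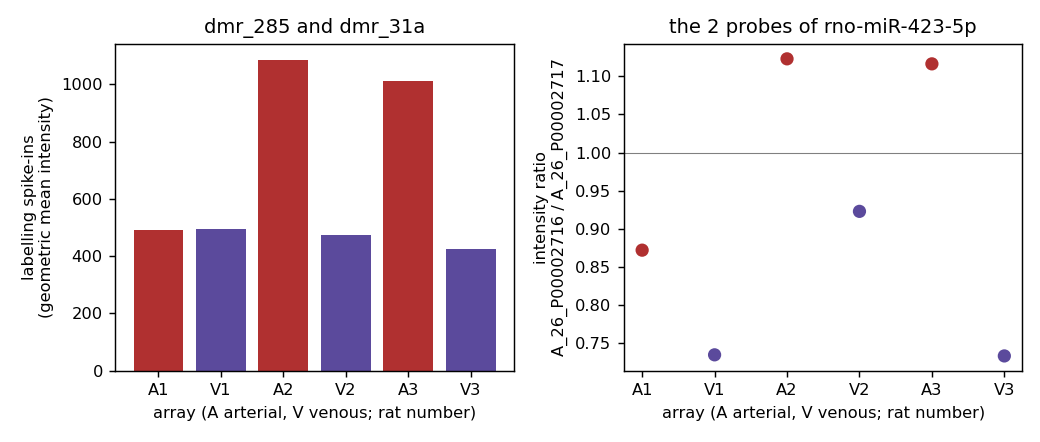
Left, geometric mean intensity of the 2 labelling spike-ins on each of 6 arrays (A arterial, V venous, with the rat number), as bars from 0. Right, ratio of the mean processed intensities of the 2 probes of rno-miR-423-5p on the same arrays. The spike-in bars of A2 and A3 reach 1086 and 1010 against 424 to 496 on the other 4, and the probe ratio is highest, at 1.12, on the same 2 arrays.

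The spots of the 5p arm could be compared at the same position of the paired arrays. Flagged spots are included in these counts. The arterial spot was the brighter in 47 of 48 such pairs before scaling, in 16, 15 and 16 of 16 in rats 1, 2 and 3. After each array was divided by its 75th percentile over the detected microRNAs this held in 44 of 48. The other 4 were all spots of probe A_26_P00002717 in rat 1. Spots of 1 array share its sample and are not replicates, so this counts positions only. For the 3p arm the arterial spot was the brighter in 29 of 48 pairs before and in 25 of 48 after scaling.

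The 3p arm was read by 4 probes with 4 spots each, and 2 of these carried its signal. Probe A_26_P00001846 ranged from 8.75 to 30.0 and had 19 of 24 spots well above background, and probe A_26_P00001847 ranged from 6.06 to 22.1 and had 14 of 24. Probes A_26_P00001844 and A_26_P00001845 were not well above background on any of their 24 spots each, so that they carry no measured difference. The number of 3p spots well above background was 8, 8 and 1 of 16 in the arterial and 6, 8 and 2 of 16 in the venous plasma of rats 1, 2 and 3. Both samples of rat 3 were therefore near the detection limit for this arm. Alone, the 2 brighter probes gave differences of 0.07 ± 0.44 and -0.00 ± 0.10 (SD, n = 3 rats).

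**Figure D4:**
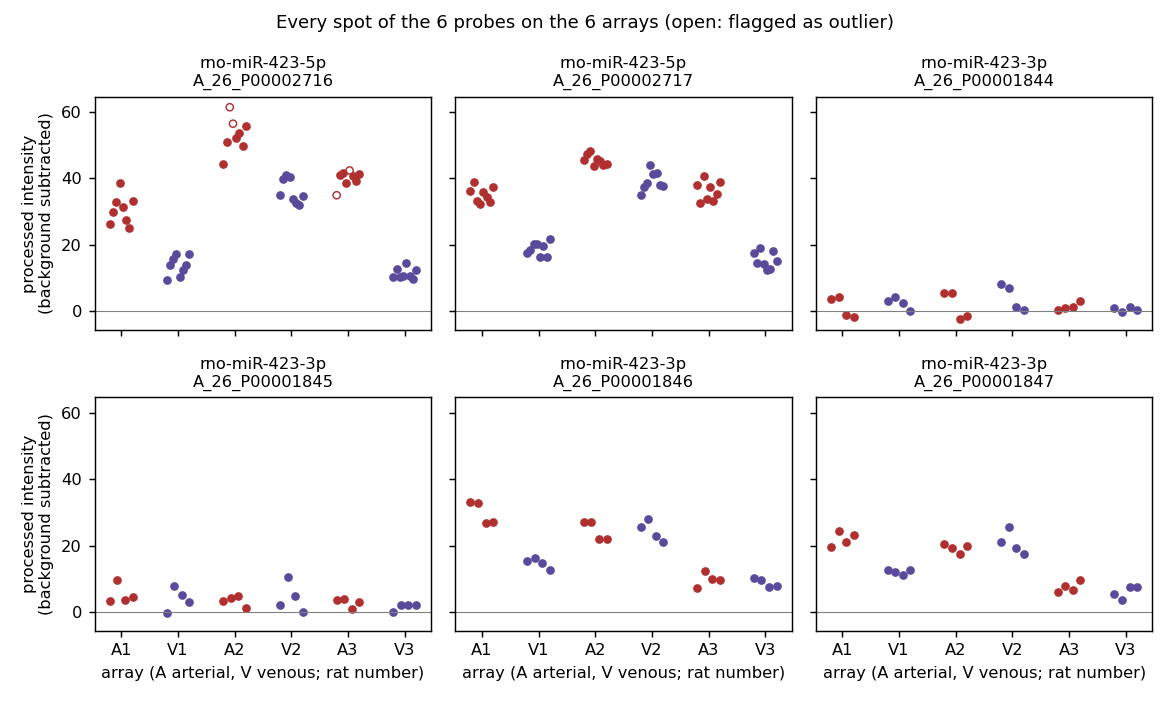
Processed (background-subtracted) intensity of every spot (vertical axis) of the 2 probes of rno-miR-423-5p and the 4 probes of rno-miR-423-3p on 6 arrays (horizontal axis; A arterial in red, V venous in purple, with the rat number), with spots flagged as outliers drawn open. The 5p probes lie clearly above 0 on every array, while probes A_26_P00001844 and A_26_P00001845 of the 3p arm scatter near 0.

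The ratio of the 5p to the 3p intensity within an array compares the arms free of any scaling of that array. In arterial plasma its log2 was 1.16 in rat 1, 1.98 in rat 2 and 2.81 in rat 3. In venous plasma it was 0.97, 1.48 and 1.66, and the groups overlapped. Within rats the ratio was higher in arterial plasma by 0.19, 0.49 and 1.16, or 0.61 ± 0.49 (SD, n = 3 rats), a mean of 1.53-fold. Rat 3, in which the 3p arm was weakest, gave the largest value, and without it the mean was 0.34. After quantile normalization the mean was 0.48. It was lower by more than 1.5 times with the brightest probe of each arm (0.38) and in the table of the authors (0.22). The same held for the median spot intensity without background subtraction (0.30) and for normexp, which adds an offset of 50 (0.25). With the brightest probes, A_26_P00002717 and A_26_P00001846, the direction turned in rat 1. Their mean intensities there were 35.1 and 30.0 in arterial and 18.8 and 14.8 in venous plasma. In rat 3 only 1 of 16 arterial and 2 of 16 venous 3p spots were well above background, so its ratio is set against an arm near the detection limit. With only the 2 brighter 3p probes the mean over rats was 0.58.

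On these arrays 8 hairpins had both arms detected on all 6. The arm ratio difference of the other 7 had a median of -0.39 and ranged from -0.76 in rno-mir-466b to 0.23 in rno-mir-140. Over all 3 rats none of the 7 was higher than rno-mir-423, and 2 were larger in size, rno-mir-466b and rno-mir-328a. The means of both were toward the 3p arm in arterial plasma, but in rat 1 both were toward the 5p arm (0.21 and 0.16). This first place rested on rat 3: without it the mean was 0.34 for rno-mir-423 and 0.39 for rno-mir-142 (named after its values were seen). In rat 1 rno-mir-142 at 0.41 and rno-mir-466b at 0.21 were above rno-mir-423 at 0.19. With intensities averaged over probes, the sign was the same in all rats for rno-mir-423 and for 2 of the other 7. For rno-mir-423 it turned in rat 1 with the brightest probe of each arm. The hairpin was chosen from this contrast, so its place among the 8 is a description.

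**Figure D5:**
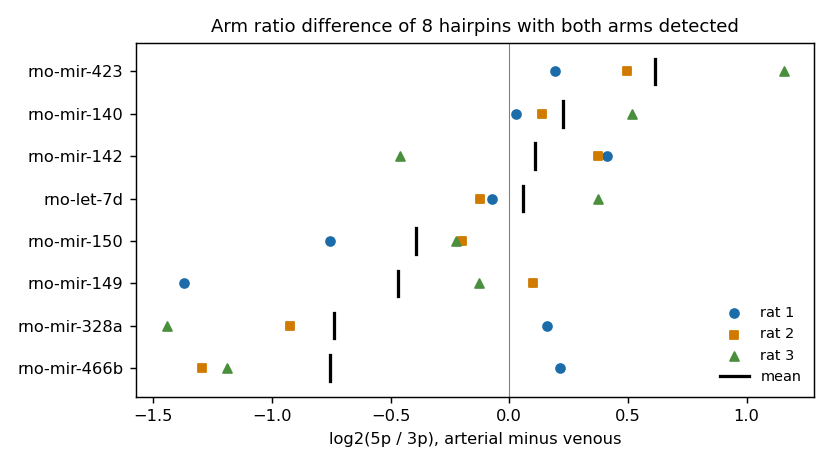
Arterial minus venous difference of log2(5p / 3p) (horizontal axis) for the 8 hairpins with both arms detected on all arrays, with a point for each of 3 rats and the mean as a bar. The 3 rats of rno-mir-423 lie at 0.19, 0.49 and 1.16, with a mean of 0.61, but without rat 3 its mean of 0.34 lies below the 0.39 of rno-mir-142.

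The mean levels of the rats are orthogonal to plasma type in this paired design and did not enter the choice. The F test between rats divides by the spread of the differences within rats, which the contrast behind the choice shares, so it is not fully independent of that choice. The mean log2 level of rno-miR-423-5p over both samples was 4.75, 4.96 and 5.04 in rats 1, 2 and 3. That of rno-miR-423-3p was 3.39, 3.37 and 2.73. After quantile normalization rat 3 was thus highest for 5p and lowest for 3p. Before it the mean processed intensity was 24.6, 43.0 and 25.9 for 5p and 11.5, 12.9 and 4.86 for 3p, so that rat 3 was lowest for 3p there too, while rat 2 was highest for both arms. In the F test of limma over all 758 microRNAs with Benjamini-Hochberg adjustment, neither arm passed an adjusted p of 0.05. The adjusted p was 1 for rno-miR-423-5p (unadjusted p = 0.256), over a range of 0.29 between rat means, and in the table of the authors the adjusted p was 0.0759 (unadjusted p = 0.00422). The adjusted p was 0.666 for rno-miR-423-3p (unadjusted p = 0.0631), over a range of 0.67. Of all 758 microRNAs 0% passed and 58 had an unadjusted p of at most 0.05 in limma. In the table of the authors 14 passed and 248 had an unadjusted p of at most 0.05. Rat 3 was also the rat of the other slide, so the rat and the slide cannot be told apart in this comparison. Within slides the arterial minus venous difference of rno-miR-423-5p was 0.46 on the slide of rats 1 and 2 and 0.73 on that of rat 3, and that of rno-miR-423-3p was 0.19 and -0.17.

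After quantile normalization the arms did not follow each other over the 6 arrays. Their log2 levels had a Pearson r of -0.22, which ranked 73 of 125 detected microRNAs when these were ordered by likeness to either arm. Before normalization both arms were dimmest in the venous sample of rat 3, with processed intensities of 13.5 (5p) and 4.27 (3p). This r is therefore tied to the normalization, and its sign is not read. The microRNAs nearest in pattern to rno-miR-423-5p were rno-miR-3584-5p (r = 0.97), rno-miR-326-3p (r = 0.87) and rno-miR-10b-5p (r = 0.75). Of these rno-miR-3584-5p had the larger arterial minus venous differences, at 0.69, 1.33 and 1.14 in rats 1, 2 and 3. Nearest to rno-miR-423-3p were rno-miR-145-5p (r = 0.95), rno-miR-143-3p (r = 0.86) and rno-miR-1896 (r = 0.86). rno-miR-145-5p and rno-miR-143-3p come from a common cluster known from smooth muscle, and all 3 neighbours, rno-miR-1896 included, were lowest in the 2 samples of rat 3, as the 3p arm was. These r are over 6 arrays that share rats in pairs and were picked as the highest of 125, so they are a description.

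Most microRNAs often used with miR-423 as reference in plasma PCR had differences below 0 after quantile normalization, a sign that depended on the scaling. Of the 9 on the list 6 were detected on all arrays, and the median of their differences was -0.17, with 1 above 0 and 5 below, against -0.00 over the 126 detected. The difference was 0.37 for rno-let-7a-5p, -0.15 for rno-miR-103-3p, -0.36 for rno-miR-425-5p, -0.47 for rno-miR-93-5p, -0.06 for rno-miR-24-3p and -0.19 for rno-miR-30e-5p. None of them passed the cutoff of 0.025 in limma. Without normalization 5 of the 6 were above 0, with a median of 0.24, and with the hybridization spike-ins all 6 were, with a median of 0.32, while with the labelling spike-ins all 6 were below 0, with a median of -0.57. Scaled to the mean log2 level of these reference microRNAs, the difference of rno-miR-423-5p was 0.69 and that of rno-miR-423-3p was 0.08.

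Markers of cells that could add RNA to plasma overlapped between the 2 kinds of plasma. The summed level of the erythrocyte list ranged from 2038 to 2261 in arterial and from 1698 to 2385 in venous plasma (4 of 5 detected on all arrays, rno-miR-144-5p on none). For platelets and leukocytes the ranges were 531 to 986 and 690 to 934 (5 of 7), and for liver 75.3 to 587 and 95.2 to 269 (2 of 4). For heart and skeletal muscle they were 22.1 to 48.2 and 22.2 to 50.1 (1 of 7), and rno-miR-208a-3p, rno-miR-208b-3p and rno-miR-499-5p, which lie in myosin genes of heart and slow skeletal muscle, were at the floor on all 6 arrays. The median differences of these 4 lists were -0.04, -0.00, 0.21 and 0.07, and none of their members passed the cutoff. The rats differed here: of the erythrocyte microRNAs detected on all arrays, 0, 0 and 3 of 4 were higher in arterial plasma in rats 1, 2 and 3, and of those of platelets and leukocytes 0, 1 and 4 of 5. Ties count as not higher: the difference was exactly 0 for rno-miR-451-5p in rats 1 and 2 and for rno-miR-223-3p in rat 2. There quantile normalization gave both arrays the same value. The share over all detected microRNAs was not counted by rat, so these counts are a description. Rat 3 also had the largest 5p difference on these levels, though the smallest in the table of the authors. In this rat the log2 difference was 0.79 for rno-miR-451-5p, 1.1 for rno-miR-144-3p, 0.86 for rno-miR-142-3p and 0.69 for rno-miR-223-3p. It was -0.47 for rno-miR-486 and -0.58 for rno-miR-150-5p, the members detected on all arrays that went the other way in that rat. All of these but rno-miR-451-5p are named after their values were seen. The log2 ratio of rno-miR-451-5p to rno-miR-23a-3p, which rises with red cell lysis, was 2.27, 1.74 and 1.94 in arterial and 2.37, 2.14 and 1.25 in venous plasma. The ratio differed by -0.10, -0.39 and 0.69 in rats 1, 2 and 3. The part of blood cell RNA in the values of the 2 arms was not tested.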

How the data were processed

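Plasma microRNA was measured on 6 arrays, 3 arterial and 3 venous, paired by rat. The sample titles give a replicate number, which was taken as the rat number. The paper likewise matches its numbered arterial and venous samples by rat. The authors deposited spot intensities from Agilent Feature Extraction (version 11.0.1.1 in the submitters' processing notes, 10.7.3.1 in the file headers), background subtracted and not normalized, and a quantile-normalized table of probe intensity on the linear scale, which ranks probes as the median intensity of the first listed spot without background subtraction. Flagged spots (8.72 to 10.4%) were left out, processed intensities were averaged over the spots of a probe and then over probes, quantile normalization covered 758 microRNAs, a floor of 1 was set, and log2 was taken. Limma 3.58.1 (R 4.3.3) was fitted with plasma type and rat over all microRNAs and was tested on simulated data. Precision is limited by the number of arrays. The members, lists, nearest-pattern rule and settings were chosen with earlier results of these data known. Named are both arms, the 3 microRNAs nearest in pattern to each, detected reference microRNAs, the extreme hairpins and microRNAs of the lysis ratio. Sequences are from RefSeq (GRCr8). The array design was made on rn4.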

Additional observations from a re-analysis of the deposited data

How the results depend on the processing

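The 5p difference was above 0 in all 23 alternatives (0.15 to 1.05) and the arm ratio difference in all 28 (0.22 to 1.46), of which 7 equal the reported value by construction, since array scaling and a floor below both arms leave the ratio as it is, while the 3p difference was above 0 in 16 and below in 9 of 25. Among those below 0 were probes A_26_P00001844 and A_26_P00001845 alone (-0.63 and -0.06), which carry no measured difference. The 5p mean of 0.55 moved by more than its SD between rats to 0.96 without normalization, 1.05 with hybridization spike-ins, 0.15 with labelling spike-ins, 0.21 with the median spot intensity without background subtraction, 0.24 in the authors' table, 0.19 with normexp, 0.33 with the brightest probe, 0.77 and 0.32 with probes A_26_P00002716 and A_26_P00002717 alone, and 0.35 in rat 1 alone. Without single rats it was 0.46 to 0.65. The 3p mean of 0.07 moved to 0.35 without normalization, 0.43 and -0.47 with hybridization and labelling spike-ins, -0.63 on probe A_26_P00001844, which was not well above background, and -0.17 on slide 2, and was -0.04 to 0.19 without single rats. The arm ratio difference moved to 1.46 with that probe and to 1.16 on slide 2, and was 0.34 to 0.83 without single rats. The causes were not tested, except that some values hold a constant that shrinks ratios. These are the values without background subtraction and those of normexp, which adds an offset of 50. The contrast chose the hairpin, so nothing is read from the count of arms past the cutoff of 0.025. This count, 0 as reported, was 1 with the reference list, the median spot intensity, the authors' table, normexp, flagged spots kept, the median of spots, a floor of 0.1 and an intensity trend, and it was 0 to 1 without single rats (1 without rat 1). Without the pairing by rat as a block it was also 1. In the other 20 of 30 alternatives it stayed 0. In the limma F test between rats neither arm passed under any alternative (adjusted p of 0.0759 to 1 for 5p and 0.10 to 1 for 3p). The labelling spike-in scaling, single probes, bright 3p probes, rat 1 alone and the quantile-normalized arm ratio were chosen after the data were seen. The signal of the 3p arm was dim, with 1 to 8 of 16 spots well above background on an array.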
